A study of Mus musculus with 9 samples.

Results

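The genes described here are those that carry the KEGG pathway ko04136 (autophagy - other) in the annotation of the deposited expression table, which are 47 of its 56691 genes. Membership was set by that annotation alone and by no expression value, but the choice of genes was made with earlier results of these data known. RNA was measured in 9 libraries of RAW264.7 cells, a mouse macrophage-like line that becomes osteoclast-like when it is given RANKL, the cytokine that drives osteoclast formation. There were 3 libraries each of untreated cells (control, labelled Ctrl), cells given RANKL, and cells given RANKL together with uridine (RANKL + UD, labelled UDRANKL), all collected after 3 days of culture. UD is the study's short name for uridine, a pyrimidine nucleoside. The labels of these libraries give no dose. All groups share 1 immortal cell line, so the spread within a group is that between replicates of this line.

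Autophagy is the process by which a cell wraps part of its own contents in a double membrane, the autophagosome, and delivers it to the lysosome for breakdown. The ULK kinase complex starts it when the nutrient-sensing kinase complex mTORC1 releases its hold, a lipid kinase complex built on VPS34 and Beclin 1 marks the site, and ATG9, ATG2 and the WIPI proteins bring and hold lipid there. A conjugation machinery that resembles ubiquitination then attaches proteins of the ATG8 family (the LC3 and GABARAP proteins) to the growing membrane, where they hold cargo receptors. In osteoclasts, several proteins of this conjugation machinery are also known to act in secretion at the ruffled border, the membrane through which bone is resorbed.

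Total counts per library were 15951800 to 19746862 in control, 19182637 to 19705724 in RANKL and 16311504 to 19657967 in RANKL + UD, and the 47 genes together took between 0.179% and 0.200% of each. All 8 macrophage markers examined reached 1 FPKM (reads per length of exon, scaled to the library's total) in every library, and their summed level was 9437 to 10022 FPKM in control, 2555 to 2800 in RANKL and 2227 to 2360 in RANKL + UD. Most of this sum was Lyz2, at 7818 to 8299 FPKM in control, and single markers could go the other way, as Cd68 did with 524 to 599 FPKM in control and 758 to 830 in RANKL, and Adgre1 with 9.75 to 10.8 in RANKL and 12 to 13.6 in RANKL + UD. The summed level of 10 osteoclast markers was 57.6 to 60.3, 2715 to 2920 and 1724 to 1761 FPKM in the same order, with the calcitonin receptor gene Calcr at 0 counts in control. Sums over fibroblast, lymphocyte and epithelial markers did not pass 0.26 FPKM. The differentiation markers thus moved with the groups in both comparisons, and their part in the results on autophagy genes was not tested. In bulk RNA, fewer cells of a type and less RNA per cell cannot be told apart.

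Of the 47 genes, 34 reached 1 FPKM in 3 or more libraries, the filter on low values, and were tested. In control, their mean level ran from 1.56 FPKM for Wipi1 to 75.2 FPKM for Gabarap. Wipi1 passed through 5 libraries, the 3 control libraries and 2 of RANKL, and each of the other 33 passed in all 9. The other 13 genes were not tested. Among them Becn2, Igbp1b, Gm45678, Gm5358, Gm6051 and Gm6058 had no count in any library, and Gm5829, Gm6059, Gm2774, Gm3724 and Atg4a-ps had 1, 2, 3, 23 and 76 counts over all 9. The remaining 2, Syt6 (a synaptotagmin, 101 counts) and Cntd1 (a cyclin-like gene, 163 counts), carry the KEGG orthology numbers of the ATG4 proteases and of Beclin 1 and lie over Atg4a-ps and Becn1 on the opposite strand.

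A gene was called higher or lower at an adjusted p under 0.05 (quasi-likelihood test of edgeR, adjusted by Benjamini-Hochberg over all 11995 genes tested). In RANKL against control, 12 of the 34 genes were called higher, where 27.3% of all tested genes were, and 11 were called lower, where 30.2% of all tested genes were. In RANKL + UD against RANKL, 2 were called higher, where 18.6% of all tested genes were, and 17 were called lower, where 20.2% of all tested genes were. In RANKL + UD against control, 7 were called higher against 26.7% of all tested genes, and 17 were called lower against 27.3%. As shares of the 34 genes these counts are 35.3% and 32.4%, then 5.88% and 50.0%, then 20.6% and 50.0%. The shares in RANKL against control lay near those of all tested genes, while the share called lower in RANKL + UD against RANKL was above the share of all tested genes and the share called higher was below it. The RANKL libraries enter the first 2 comparisons with opposite sign, and the control and RANKL + UD libraries are likewise each shared by 2 of the 3 comparisons.

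**Figure D1:**
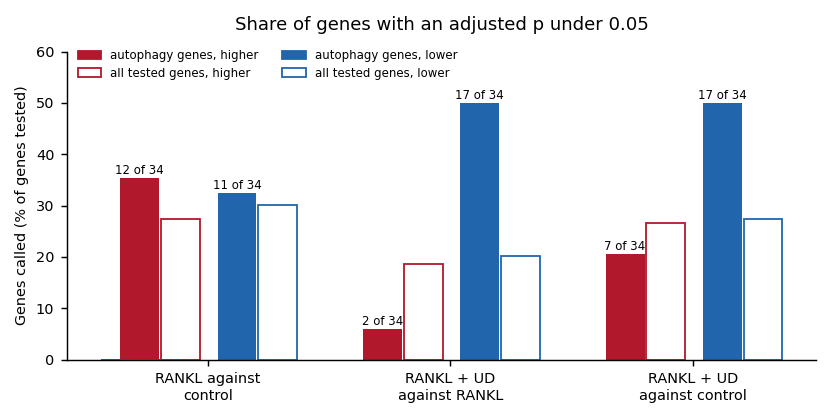
Share of genes called (y axis, % of genes tested) in each of the 3 comparisons (x axis), for the 34 tested autophagy genes (filled bars, with their number) and all 11995 tested genes (open bars), in red where the first named group was higher and in blue where it was lower. The filled blue bar for RANKL + UD against RANKL stands at 50.0%, beside an open bar at 20.2%.

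In the order RANKL against control, RANKL + UD against RANKL and RANKL + UD against control, the median absolute log2 fold change of the 34 genes was 0.27, 0.23 and 0.30. Over all tested genes it was 0.33, 0.21 and 0.29. With the sign kept, so that rises and falls can cancel, the median of the 34 genes was 0.00, -0.20 and -0.19. The signed median over all tested genes was -0.03, 0.00 and -0.00. With a fold change over 1.5 required as well, the calls were 3 higher and 1 lower in RANKL against control, 0 higher and 5 lower in RANKL + UD against RANKL, and 1 higher and 7 lower in RANKL + UD against control, while 10.8% and 14.1%, 4.38% and 5.49%, and 9.30% and 12.8% of all tested genes were. In FPKM as deposited, all 3 libraries of RANKL + UD lay below all 3 of RANKL for 16 of the 34 genes, where this held for 17.6% of all tested genes, and above them for 6, where it held for 34.1%. The fold changes are on the scale of edgeR's TMM factors, which lay between 0.959 and 0.962 in RANKL and between 1.01 and 1.03 in control and RANKL + UD. A gene with equal FPKM in RANKL and RANKL + UD therefore has a log2 fold change a little below 0. Under scaling by library totals alone, 3 of the 34 were called higher and 13 lower in RANKL + UD against RANKL, and the share of calls that were higher over all genes went from 48.0% to 66.2%. In RANKL against control, the same scaling called 10 of the 34 higher and 13 lower, and the share over all genes went from 47.5% to 36.9%.

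**Figure D2:**
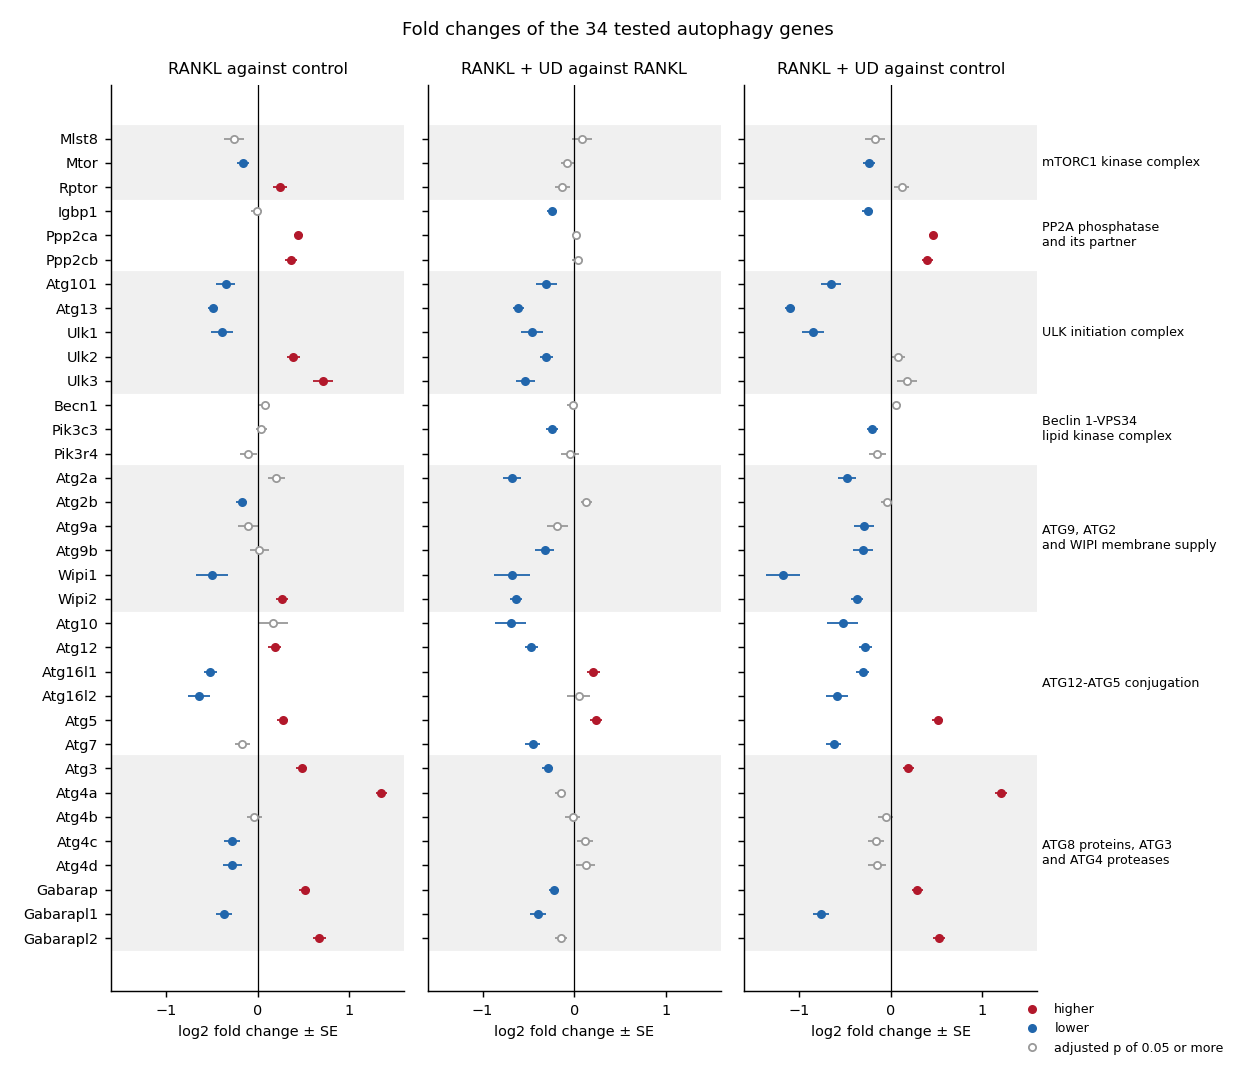
Log2 fold change (x axis, point, with a bar of ± 1 SE from edgeR) of each of the 34 tested autophagy genes (y axis, grouped by role) in the 3 comparisons. Filled red and blue points have an adjusted p under 0.05, and in the middle panel the 5 genes of the ULK complex are all blue while Atg5 and Atg16l1 are the 2 red points.

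The ULK initiation complex was the group in which every tested member fell with UD. Its members are the kinases Ulk1 and Ulk2, the related kinase Ulk3, and Atg13 and Atg101, which hold the complex together. All 5 were called lower in RANKL + UD against RANKL, where 20.2% of all tested genes were, with log2 fold changes of -0.61 to -0.31. The call of Atg101 was lost in several other fits. In RANKL against control, 2 of the 5 were called higher and 3 lower, where 27.3% and 30.2% of all tested genes were.

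Atg13, the regulatory subunit that mTORC1 phosphorylates, had 23.7, 23.7 and 25.1 FPKM in control, 16.2, 16.6 and 15.9 in RANKL, and 10.8, 12.0 and 10.9 in RANKL + UD. The 3 groups did not overlap and stood in that order. Its log2 fold change was -0.49 (SE 0.0564, edgeR adjusted p = 2.10e-07) in RANKL against control and -0.61 (SE 0.0588, adjusted p = 5.50e-08) in RANKL + UD against RANKL, and -1.10 (SE 0.0582, adjusted p = 8.12e-13) in RANKL + UD against control. Ulk1, the main kinase of the complex, was at 2.4, 2.54 and 2.72 FPKM in control, 1.83, 1.89 and 1.78 in RANKL, and 1.36, 1.28 and 1.61 in RANKL + UD, again without overlap. Its log2 fold change was -0.39 with RANKL (edgeR adjusted p = 0.00670) and -0.46 with UD (SE 0.122, adjusted p = 0.00502). Atg101, which stabilises Atg13 and was named here after its values were seen, went from a mean of 12.5 ± 1.59 FPKM in control to 9.25 ± 0.336 in RANKL and 7.95 ± 0.10 in RANKL + UD (SD, n = 3).

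Ulk2 and Ulk3 had another pattern, with RANKL the highest group. Ulk2 had 6.83, 6.98 and 7.79 FPKM in control, 8.83, 9.03 and 8.76 in RANKL, and 7.95, 7.65 and 7.24 in RANKL + UD. Its RANKL libraries lay above all others, while those of control and RANKL + UD overlapped. The log2 fold change was 0.39 (SE 0.0702, edgeR adjusted p = 6.90e-05) with RANKL and -0.31 (SE 0.0699, adjusted p = 0.00150) with UD, and in RANKL + UD against control it was 0.08 (adjusted p = 0.343). Ulk3 had 2.78, 3.41 and 2.76 FPKM in control, 4.71, 4.69 and 4.43 in RANKL, and 3.27, 3.38 and 3.5 in RANKL + UD. It rose by 0.71 on the log2 scale with RANKL (SE 0.108, edgeR adjusted p = 8.85e-06) and fell by 0.53 with UD (SE 0.107, adjusted p = 4.24e-04), and RANKL + UD against control gave 0.18 (adjusted p = 0.195). With a fold change over 1.5 required as well, Ulk1, Ulk2, Ulk3 and Atg101 were not called with UD. Of the 5, only Atg101 lost a call under the other scalings, tools and filters or with 1 library left out. In RANKL + UD against RANKL its edgeR adjusted p was 0.0347, and between 0.0615 and 0.0944 without RANKL replicate 2, RANKL replicate 3 or any 1 of the RANKL + UD replicates (log2 fold change -0.32 to -0.28), and in RANKL against control it was 0.0695 without control replicate 2 (log2 fold change -0.26, against -0.35 with all libraries).

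**Figure D3:**
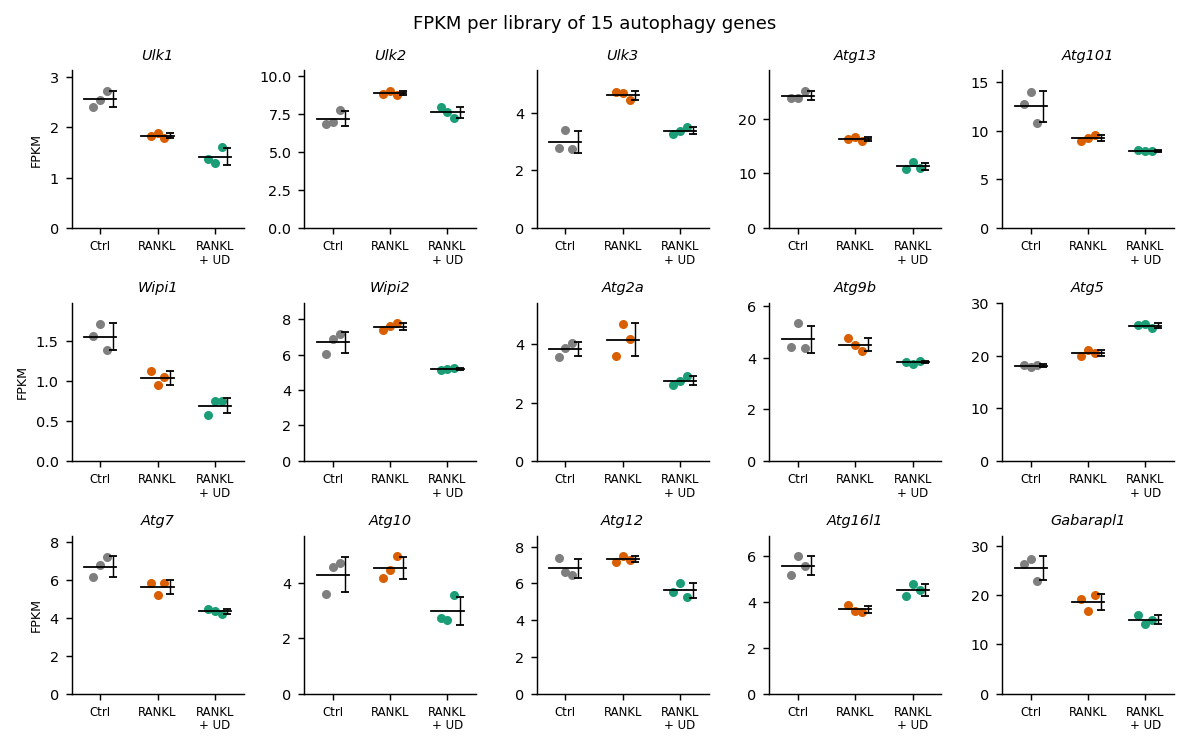
FPKM (y axis, from 0) in each library (points) of the 3 groups (x axis) for 15 of the autophagy genes, with the mean (line) and SD (bar, n = 3). Atg13, Ulk1 and Gabarapl1 step down from control through RANKL to RANKL + UD, Ulk2 and Ulk3 are highest in RANKL, and Atg5 is highest in RANKL + UD, at 25.3 to 26.1 FPKM.

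Among the genes that control the ULK complex, the tested members of mTORC1 were not called in RANKL + UD against RANKL. Mtor, the kinase itself, had a mean of 8.58 ± 0.780 FPKM in control, 7.20 ± 0.282 in RANKL and 7.27 ± 0.440 in RANKL + UD (SD, n = 3). Rptor, the scaffold that brings substrates to it, had 4.00 ± 0.332, 4.47 ± 0.155 and 4.34 ± 0.495, and Mlst8, a further subunit, 3.90 ± 0.0945, 3.07 ± 0.0954 and 3.46 ± 0.442. With RANKL, Rptor rose by 0.25 on the log2 scale (edgeR adjusted p = 0.0103) and Mtor fell by 0.16 (adjusted p = 0.0397). Mlst8 was at -0.26 (adjusted p = 0.051) and was called lower in several other fits, among them library totals alone (-0.34, edgeR adjusted p = 0.011). The Rptor call was lost without control replicate 1 (adjusted p = 0.0629), under scaling by library totals alone (log2 fold change 0.16, adjusted p = 0.0917) and with limma (0.13 on log2(FPKM + 1), adjusted p = 0.197). The Mtor call was lost with DESeq2 (adjusted p = 0.0848), RLE scaling, no filter and the 6 libraries of the comparison, and had an adjusted p of 0.0510 to 0.231 without control replicate 3, RANKL replicate 1, RANKL replicate 3 or RANKL + UD replicate 3.

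The catalytic subunits of the phosphatase PP2A were higher in both groups with RANKL. Ppp2ca had 33.3, 34.3 and 36.8 FPKM in control, 44.4, 44.1 and 45.2 in RANKL, and 46.9, 48.7 and 48.1 in RANKL + UD. The control libraries lay below all others. It rose by 0.44 on the log2 scale with RANKL (SE 0.0469, edgeR adjusted p = 5.60e-08), and UD gave 0.02 (SE 0.0465, adjusted p = 0.796). Its paralogue Ppp2cb had means of 27.9 ± 0.753, 33.7 ± 0.626 and 36.7 ± 0.546 FPKM (SD, n = 3) with log2 fold changes of 0.36 and 0.04. Igbp1, which binds free PP2A catalytic subunits, was the 1 of these 3 called in RANKL + UD against RANKL, at -0.24 on the log2 scale (SE 0.0588, edgeR adjusted p = 0.00235).

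Of the 3 tested genes of the lipid kinase complex, 0 were called in RANKL against control, where 57.6% of all tested genes were in either direction. In RANKL + UD against RANKL and against control, 1 each was called lower, where 20.2% and 27.3% of all tested genes were. Becn1, the gene of Beclin 1, was at 11.8 to 13.3 FPKM in all 3 groups, with log2 fold changes of 0.07 with RANKL and -0.02 with UD (SE 0.0570 and 0.0568, edgeR adjusted p = 0.277 and 0.835). Pik3r4, the regulatory subunit VPS15, was not called in any comparison, with log2 fold changes of -0.15 to -0.05. Pik3c3, which encodes the kinase VPS34, had means of 13.9 ± 0.756 FPKM in control, 13.5 ± 0.539 in RANKL and 12.1 ± 0.260 in RANKL + UD (SD, n = 3). It fell by 0.24 on the log2 scale with UD (SE 0.0629, edgeR adjusted p = 0.00413). Under scaling by library totals alone this was -0.16 (adjusted p = 0.0525).

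Of the 6 tested genes that bring lipid to the growing membrane, 4 were called lower with UD and none higher. Of all tested genes, 20.2% were called lower and 18.6% higher. Wipi2, a reader of the VPS34 lipid that recruits ATG16L1, had 6.04, 6.88 and 7.19 FPKM in control, 7.42, 7.60 and 7.77 in RANKL, and 5.11, 5.20 and 5.24 in RANKL + UD. The 3 groups did not overlap, with RANKL highest and RANKL + UD lowest. Its log2 fold change was 0.27 (SE 0.0626, edgeR adjusted p = 9.93e-04) with RANKL and -0.64 (SE 0.0636, adjusted p = 9.72e-08) with UD. Wipi1, its paralogue, had 1.56, 1.72 and 1.39 FPKM in control, 1.12, 0.95 and 1.05 in RANKL, and 0.58, 0.75 and 0.75 in RANKL + UD, which rests on 50 to 150 counts per library. Wipi1 passed the filter only through control and RANKL libraries, where it was higher than in RANKL + UD. It stepped down without overlap, with log2 fold changes of -0.50 with RANKL (SE 0.176, adjusted p = 0.0194) and -0.68 with UD (SE 0.192, adjusted p = 0.00773). The RANKL call had an adjusted p of 0.0888 without control replicate 2 (log2 fold change -0.42) and 0.0745 without RANKL replicate 2 (-0.44).

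The lipid transfer proteins Atg2a and Atg2b, which form the bridge through which lipid flows, differed from each other. Atg2a had 3.57, 3.88 and 4.05 FPKM in control, 3.60, 4.71 and 4.17 in RANKL, and 2.61, 2.74 and 2.90 in RANKL + UD. The RANKL + UD libraries lay below all others, and control and RANKL overlapped. Its log2 fold change was 0.20 (edgeR adjusted p = 0.0746) with RANKL and -0.68 (SE 0.0980, adjusted p = 1.16e-05) with UD. Atg2b had means of 6.19 ± 0.343 FPKM in control, 5.15 ± 0.355 in RANKL and 6.0 ± 0.00577 in RANKL + UD (SD, n = 3), with a log2 fold change of -0.18 (adjusted p = 0.0190) with RANKL and 0.13 (adjusted p = 0.0986) with UD. Under scaling by library totals alone it was called higher with UD, at 0.22 (edgeR adjusted p = 0.00705). Limma on log2(FPKM + 1) also called it higher, at 0.19 (adjusted p = 0.034). Without control replicate 1, control replicate 3 or RANKL replicate 3 the RANKL value for Atg2b had an adjusted p of 0.0612 to 0.0973. A gene on the opposite strand, Gskip, overlaps it, and since the sources used here do not say whether reads were counted by strand, reads of such pairs may not be told apart. The share of Atg2a in the summed FPKM of the pair was 36.2% to 40% in control, 40.8% to 46.6% in RANKL and 30.3% to 32.6% in RANKL + UD. The groups did not overlap, and each comparison of 3 against 3 libraries had p = 0.1 in a two-sided exact permutation test, the smallest p that this design allows.

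The vesicle scramblases Atg9a and Atg9b, the membrane proteins that seed the autophagosome, changed less. Atg9b had 4.44, 5.34 and 4.40 FPKM in control, 4.77, 4.52 and 4.25 in RANKL, and 3.85, 3.78 and 3.87 in RANKL + UD. Its RANKL + UD libraries lay below all others, and it fell by 0.32 on the log2 scale with UD (SE 0.104, edgeR adjusted p = 0.0181). This was 0.0726 without RANKL replicate 1 (log2 fold change -0.28) and 0.0571 without RANKL + UD replicate 2 (-0.31). Atg9a had means of 3.92, 3.42 and 3.2 FPKM in the same order of groups and was called only in RANKL + UD against control (log2 fold change -0.29, adjusted p = 0.0306). That call was lost without control replicate 3 or without RANKL + UD replicate 1 or 2 (adjusted p = 0.0819 to 0.133). Ankzf1, on the opposite strand, overlaps Atg9a.

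The genes of the ATG12-ATG5 conjugation machinery split in direction. With UD, Atg10, Atg12 and Atg7 were called lower. Atg5 and Atg16l1 were called higher, the only 2 of the 34 genes that were with edgeR and TMM. Of all tested genes, 20.2% were called lower and 18.6% higher. ATG7 is the activating enzyme for both conjugations, ATG10 passes ATG12 on to ATG5, and ATG16L1 binds the ATG12-ATG5 product and places it on the membrane.

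Atg10 had 3.59, 4.60 and 4.74 FPKM in control, 4.19, 4.49 and 4.98 in RANKL, and 2.72, 2.68 and 3.57 in RANKL + UD. Its RANKL + UD libraries lay below all others, and it had the most negative log2 fold change of the 34 genes with UD, -0.69 (SE 0.168, edgeR adjusted p = 0.00252). Atg12 had 7.38, 6.60 and 6.45 FPKM in control, 7.17, 7.48 and 7.26 in RANKL, and 5.55, 6.03 and 5.26 in RANKL + UD. Control and RANKL overlapped, and RANKL + UD lay below both, with a log2 fold change of -0.47 (SE 0.0718, adjusted p = 2.63e-05) against RANKL. Atg7 had 6.13, 6.77 and 7.22 FPKM in control, 5.83, 5.18 and 5.85 in RANKL, and 4.45, 4.38 and 4.20 in RANKL + UD. It fell by 0.46 on the log2 scale with UD (SE 0.0811, adjusted p = 1.33e-04), and with RANKL the value was -0.17 (adjusted p = 0.0761). The RANKL libraries of Atg7 lay below all of control. It was called lower with RANKL under library totals alone (-0.255, edgeR adjusted p = 0.00879), with limma and without control replicate 1. The RANKL value for Atg12, 0.19 (adjusted p = 0.0280), had an adjusted p of 0.0861 to 0.104 without control replicate 2, control replicate 3 or RANKL replicate 2. It was 0.10 under scaling by library totals alone (adjusted p = 0.230) and 0.09 with limma on log2(FPKM + 1) (adjusted p = 0.252).

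Atg5, named here after its values were seen, had 18.3, 17.8 and 18.2 FPKM in control, 19.9, 21.1 and 20.6 in RANKL, and 25.9, 26.1 and 25.3 in RANKL + UD. The groups stood in that order without overlap. Its log2 fold change was 0.27 (SE 0.0633, edgeR adjusted p = 9.56e-04) with RANKL, 0.24 (SE 0.0619, adjusted p = 0.00421) with UD and 0.51 (SE 0.0629, adjusted p = 5.80e-07) in RANKL + UD against control. Atg16l1 had 5.18, 6.0 and 5.59 FPKM in control, 3.86, 3.60 and 3.58 in RANKL, and 4.28, 4.78 and 4.50 in RANKL + UD. RANKL + UD lay between the other groups without overlap. It fell by 0.52 on the log2 scale with RANKL (SE 0.0738, adjusted p = 3.86e-06) and rose by 0.21 with UD (SE 0.0746, adjusted p = 0.0305). The rise with UD had an adjusted p of 0.0956, 0.0836, 0.130 and 0.0665 without RANKL replicate 2, RANKL replicate 3, RANKL + UD replicate 2 and RANKL + UD replicate 3 (log2 fold changes 0.19, 0.19, 0.17 and 0.21), which leaves 1 of the 34 genes called higher in each of these fits. Its paralogue Atg16l2, overlapped by Fchsd2 on the opposite strand, had 1.79, 1.79 and 1.90 FPKM in control, 1.05, 1.11 and 1.16 in RANKL, and 1.09, 1.16 and 1.39 in RANKL + UD. It fell by 0.64 with RANKL (SE 0.122, adjusted p = 1.25e-04), and UD gave 0.05 (adjusted p = 0.803).

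Promoters are shown for Atg3 and Atg5, of the conjugation machinery, because both hold the E-box CACGTG, a hexamer bound by the TFE family of lysosome and autophagy gene regulators, and because their RNA levels moved differently with UD. Each sequence is from RefSeq (mouse build GRCm38.p6) and runs 5′ to 3′ from 250 bases before to 50 bases after the start site that RefSeq gives, on the plus strand at chr16:45158579-45158878 and chr10:44268089-44268388. Capitals mark CACGTG, or the octamer TCACGTGA that contains it.
Atg3: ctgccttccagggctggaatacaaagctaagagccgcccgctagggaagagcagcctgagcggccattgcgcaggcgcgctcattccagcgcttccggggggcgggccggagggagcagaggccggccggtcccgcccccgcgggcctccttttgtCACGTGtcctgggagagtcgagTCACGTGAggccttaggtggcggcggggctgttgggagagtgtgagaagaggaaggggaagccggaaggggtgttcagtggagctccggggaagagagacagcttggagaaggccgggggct
Atg5: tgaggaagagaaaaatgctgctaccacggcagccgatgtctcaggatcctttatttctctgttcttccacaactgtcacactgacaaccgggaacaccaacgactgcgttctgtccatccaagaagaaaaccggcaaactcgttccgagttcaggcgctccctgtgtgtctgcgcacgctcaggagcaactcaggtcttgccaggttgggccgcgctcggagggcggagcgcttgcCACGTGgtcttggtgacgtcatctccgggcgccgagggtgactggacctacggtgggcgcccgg
Atg3 has CACGTG at positions -94 and -71 from that start, the latter inside TCACGTGA at -72, and Atg5 has it at -14. Windows were found for 29 of the 34 tested genes, with more than 1 window for 2 genes. For 26 genes a window's start site lay within 1000 bases of the start of the gene in GENCODE M21, on the same build, and for Atg7, Atg4b and Wipi2 it lay 27999, 3405 and 1886 bases inside the gene. The hexamer was in 4 of the 29 genes (13.8%), the others being Igbp1 at -176 and Atg7, in its window inside the gene, at -132. Over all tested genes with a window, 12.2% of 8369 held it, and over all 27025 genes with one 8.09% did. TCACGTGA was in 1 of the 29 (3.45%), against 2.4% of the tested genes and 1.12% of all. On either strand, none of the 29 held TGTTTAC, the FoxO motif (3.00% of the tested genes and 4.05% of all), or TGANTCA, the AP-1 motif (6.06% and 8.97%). Of the 3 genes with CACGTG near their start, Atg5 rose with UD while Atg3 and Igbp1 fell. These are matches of letters in the windows searched.

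The genes of the ATG8 proteins and the enzymes that process them included the largest change with RANKL. Atg4a, a protease that trims the GABARAP proteins before they are conjugated and later frees them from membrane, had 14.4, 13.3 and 12.3 FPKM in control, 33.1, 31.1 and 31.8 in RANKL, and 31.3, 30.5 and 30.0 in RANKL + UD. The control libraries lay far below the rest, and the other groups overlapped slightly. It rose 2.55-fold with RANKL (log2 fold change 1.35, SE 0.0631, edgeR adjusted p = 8.71e-14), the largest change of any of the 34 genes. With UD it was at -0.15 (SE 0.0594, adjusted p = 0.0517), which was called in several other fits, among them DESeq2 (adjusted p = 0.0388) and the fit without control replicate 1 (0.0403) or without control replicate 3 (0.0253). Of its paralogues, Atg4c and Atg4d fell with RANKL, at -0.28 and -0.28 on the log2 scale (adjusted p = 0.00864 and 0.0239), and Atg4b was not called, at -0.04. None of the 3 was called with UD, though limma on log2(FPKM + 1) called Atg4c higher, at 0.18 (adjusted p = 0.0342). Kri1 overlaps Atg4d and Thap4 overlaps Atg4b on the opposite strand, and the Atg4d call with RANKL had an adjusted p of 0.0665 to 0.0866 without control replicate 3, RANKL replicate 1 or RANKL replicate 3.

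Within the ATG4 family, the share of Atg4a in the summed FPKM was 43.5% to 47.2% in control, 70.2% to 71.7% in RANKL and 67.3% to 68.4% in RANKL + UD, with no overlap between groups. The summed FPKM of the 4 genes was 29.2 ± 1.12, 45.0 ± 1.01 and 45.1 ± 0.904 (SD, n = 3). Atg4a-ps, annotated as its pseudogene, had 1 to 14 counts per library, against 589 to 1963 for Atg4a.

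The GABARAP genes diverged. Gabarap, whose protein holds cargo receptors and helps the autophagosome meet the lysosome, had 72.3, 74.5 and 78.9 FPKM in control, 93.4, 102 and 107 in RANKL, and 94.1, 93.4 and 88.4 in RANKL + UD. It rose by 0.51 on the log2 scale with RANKL (SE 0.0556, edgeR adjusted p = 8.48e-08) and fell by 0.22 with UD (SE 0.0551, adjusted p = 0.00317), where the FPKM of the groups overlapped and the adjusted p was 0.0569 under scaling by library totals alone and 0.0962 with limma. Gabarapl2 had 17.7, 17.5 and 16.2 FPKM in control, 24.5, 24.7 and 28 in RANKL, and 24.9, 24.5 and 24.7 in RANKL + UD. It rose by 0.67 with RANKL (SE 0.0694, adjusted p = 3.99e-08), and UD gave -0.14 (adjusted p = 0.0994). Gabarapl1, known to be induced by starvation in other tissues, went the other way, with 26.5, 27.4 and 22.9 FPKM in control, 19.2, 16.9 and 20.0 in RANKL, and 16.1, 14.2 and 14.9 in RANKL + UD. The 3 groups did not overlap, and it was at -0.36 with RANKL (SE 0.0858, adjusted p = 0.00105) and -0.40 with UD (SE 0.0887, adjusted p = 0.00121).

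Gabarapl1 thus held 19.4% to 23.0% of the summed FPKM of the 3 GABARAP genes in control, 11.8% to 14.0% in RANKL and 10.7% to 11.9% in RANKL + UD. The difference of RANKL from control was -8.79 percentage points (two-sided exact permutation p = 0.1, the smallest possible for 3 against 3), and that of RANKL + UD from RANKL was -1.46 points (p = 0.2). The sum itself was 118 ± 1.42, 145 ± 9.24 and 132 ± 3.53 FPKM (SD, n = 3). Several predicted genes carry the same orthology number, and reads could have been split between such copies and the GABARAP genes. The copy with most reads, Gm3724, had at most 7 counts in a library, but how reads matching several copies were counted is not known. Atg3, the enzyme that passes ATG8 proteins to the lipid, had 30.8, 29.1 and 27.1 FPKM in control, 35.5, 37.9 and 41.0 in RANKL, and 33.9, 31.6 and 33.7 in RANKL + UD. RANKL + UD lay between the other groups without overlap, with log2 fold changes of 0.48 (SE 0.0621, edgeR adjusted p = 1.06e-06) with RANKL and -0.29 (SE 0.0616, adjusted p = 8.14e-04) with UD.

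**Figure D4:**
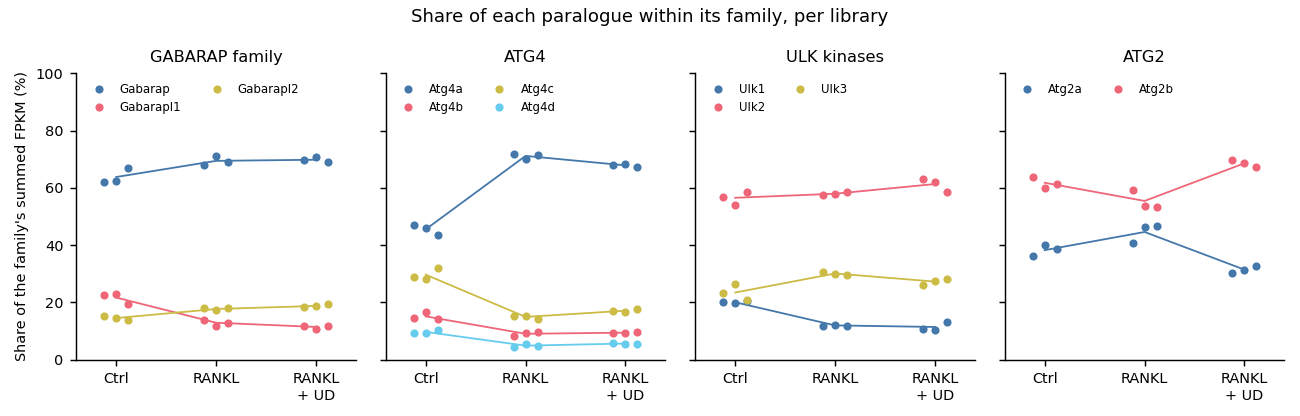
Share of each gene in the summed FPKM of its family (y axis, %) in each library (points) of the 3 groups (x axis), with lines through the group means, for the GABARAP, ATG4, ULK and ATG2 families. Atg4a goes from a mean of 45.5% in control to 71.1% in RANKL, Gabarapl1 from 21.7% to 12.9%, and Atg2a from 44.6% in RANKL to 31.4% in RANKL + UD.

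The ULK and WIPI families also shifted in make-up with RANKL. Ulk1 held 20.0% ± 0.429 of the summed FPKM of Ulk1, Ulk2 and Ulk3 in control, 12.0% ± 0.121 in RANKL and 11.4% ± 1.42 in RANKL + UD (SD, n = 3). Wipi1 held 18.9% ± 2.36, 12.0% ± 1.01 and 11.8% ± 1.37 of the sum of Wipi1 and Wipi2. For both genes, RANKL differed from control with a two-sided exact permutation p of 0.1, the smallest possible, and RANKL + UD from RANKL with p = 0.5 and 0.8. The sums were 12.7, 15.3 and 12.4 FPKM for the ULK kinases and 8.26, 8.64 and 5.88 FPKM for the WIPI genes in control, RANKL and RANKL + UD. Ulk2 held 61.3% in RANKL + UD against 57.9% in RANKL, and Ulk3 27.3% against 30.1%, each with p = 0.1 in the same exact permutation test. Shares within the ATG9, ATG16L and PP2A catalytic pairs overlapped between the groups. For these pairs, in that order, the two-sided exact permutation test gave p = 0.5, 0.3 and 0.2 in RANKL against control. In RANKL + UD against RANKL, the two-sided exact permutation test gave p = 0.5, 0.3 and 0.5 for the same pairs.

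In RANKL + UD against control, the 5 lowest log2 fold changes were those of genes called lower in both other comparisons. Wipi1, which passed the filter only through control and RANKL libraries, was at -1.18 on the log2 scale (SE 0.187, edgeR adjusted p = 1.67e-05). Atg13 was at -1.10, Ulk1 at -0.85 (SE 0.120, adjusted p = 3.74e-06), Gabarapl1 at -0.76 (SE 0.0878, adjusted p = 2.17e-07) and Atg101 at -0.66. Atg4a was the only gene over a fold change of 1.5 in the other direction, at 1.20 (SE 0.0634, adjusted p = 7.88e-13). The 6 others called higher were Gabarapl2, Atg5, Ppp2ca, Ppp2cb, Gabarap and Atg3, at 0.19 to 0.53. The lowest of them, Atg3, lost its call without control replicate 3 or without RANKL + UD replicate 1 or 3 (log2 fold change 0.15 to 0.18, edgeR adjusted p = 0.0510 to 0.0590).

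The genes around this core were read from lists chosen with knowledge of the pathway, from which the 47 genes were left out. Beside each count, the share of all tested genes called is 27.3% higher and 30.2% lower with RANKL, and 18.6% higher and 20.2% lower with UD. Cargo receptors tie the load to ATG8 proteins. Of 20 receptor genes, 17 were tested, of which 11 (64.7%) were called higher and 1 (5.88%) lower with RANKL (median log2 fold change 0.30) and 1 (5.88%) higher and 11 (64.7%) lower with UD (median -0.28). Sqstm1, the receptor p62 for ubiquitinated cargo, had 118, 118 and 127 FPKM in control, 227, 238 and 240 in RANKL, and 121, 124 and 125 in RANKL + UD. The RANKL libraries lay far above the others, which overlapped, and the log2 fold changes were 1.05 with RANKL, -1.02 with UD (edgeR adjusted p = 1.16e-12) and 0.03 in RANKL + UD against control (adjusted p = 0.668). Bnip3, a mitochondrial receptor, had 94.7, 92.7 and 93.7 FPKM in control, 237, 236 and 240 in RANKL, and 145, 144 and 143 in RANKL + UD. It rose by 1.43 with RANKL and fell by 0.81 with UD, staying above control. Calcoco1, a receptor for the endoplasmic reticulum, had the largest fall of the list with UD, at -1.10, from 5.59 to 5.71 FPKM in RANKL to 2.76 to 2.89 in RANKL + UD, below the 4.77 to 5.12 of control. Ncoa4, the receptor for the iron store ferritin, rose by 0.91 with RANKL and was at 0.11 with UD (adjusted p = 0.0876). Under scaling by library totals alone it was called higher with UD, at 0.20 (edgeR adjusted p = 0.00393). Fundc1, another mitochondrial receptor, was the 1 receptor called higher with UD, at 0.21 (adjusted p = 0.0181), a call lost without RANKL replicate 1 or RANKL + UD replicate 1 or 3 (adjusted p = 0.0506 to 0.0886). Wdfy3, a scaffold for protein aggregates, was the 1 called lower with RANKL, at -0.41.

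**Figure D5:**
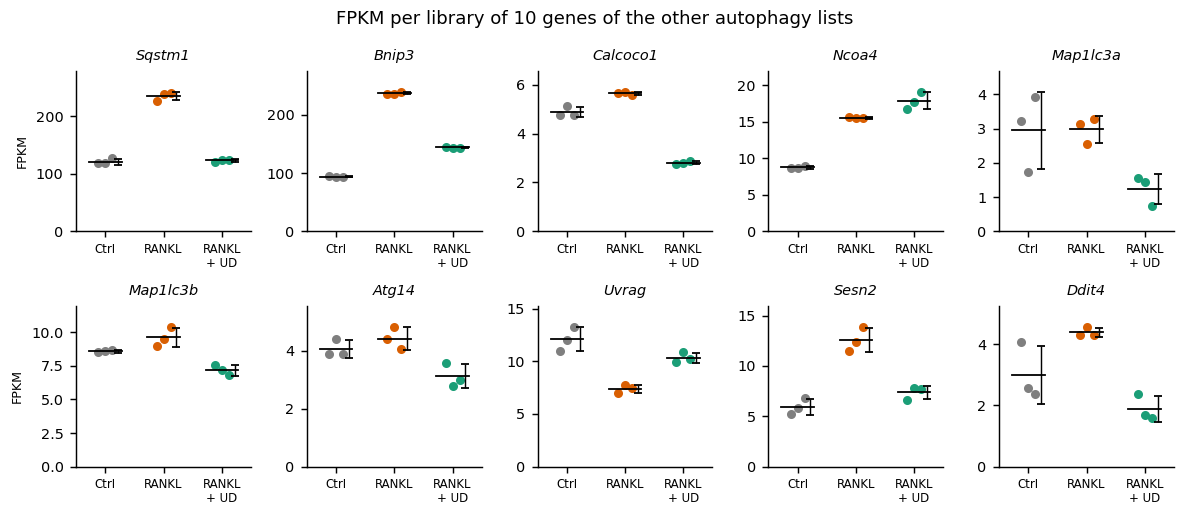
FPKM (y axis, from 0) in each library (points) of the 3 groups (x axis) for 10 genes outside the 47, with the mean (line) and SD (bar, n = 3). Sqstm1 is at 227 to 240 FPKM in RANKL and at 118 to 127 in both other groups, and Uvrag is lowest in RANKL.

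LC3 genes are not among the 47 and were read separately. Map1lc3b, the most studied ATG8 gene, had 8.51, 8.58 and 8.71 FPKM in control, 8.98, 9.47 and 10.4 in RANKL, and 7.56, 7.16 and 6.79 in RANKL + UD. The groups did not overlap, and it rose by 0.25 with RANKL and fell by 0.51 with UD on the log2 scale (edgeR adjusted p = 0.00262 and 3.27e-06). The rise with RANKL was 0.14 and 0.16 with limma on log2(FPKM + 1) and log2(FPKM + 0.1) and was not called (adjusted p = 0.0665 and 0.0689). Map1lc3a was low and variable, with 3.22, 1.72 and 3.93 FPKM in control, 3.14, 2.54 and 3.27 in RANKL, and 1.55, 1.45 and 0.74 in RANKL + UD. It fell by 1.33 with UD (SE 0.319, adjusted p = 0.00223), and with RANKL it was at 0.12 (adjusted p = 0.750). These 2 genes formed a list with Rb1cc1, the gene of the ULK complex scaffold FIP200, and Tecpr2, whose protein binds ATG8 proteins. Rb1cc1, named here after its values were seen, fell by 0.37 with UD (adjusted p = 6.95e-05), and Tecpr2 fell by 0.49 with RANKL (adjusted p = 1.28e-04) and was at 0.08 with UD (adjusted p = 0.574). Of these 4 genes, 2 were called higher and 1 lower with RANKL, and 3 lower and 0 higher with UD.

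Of 11 regulators of the VPS34 complex and membrane scramblases, 4 (36.4%) were called higher and 5 (45.5%) lower with RANKL, where 27.3% and 30.2% of all tested genes were, and 1 (9.09%) higher and 5 (45.5%) lower with UD, where 18.6% and 20.2% were (median log2 fold change -0.20). Atg14 and Uvrag, which make alternative VPS34 complexes for autophagosome formation and for endosomes, went in opposite directions with UD. Atg14 fell by 0.59 and Uvrag rose by 0.40 (SE 0.0657, edgeR adjusted p = 5.45e-05), after a log2 fold change of -0.62 with RANKL. Uvrag had 11, 12 and 13.3 FPKM in control, 6.98, 7.73 and 7.42 in RANKL, and 9.95, 10.9 and 10.2 in RANKL + UD, without overlap. Bcl2l1, an inhibitor of cell death that also binds Beclin 1, had the largest fall of the list with UD, at -0.68, and Bcl2 the largest with RANKL, at -0.64. Nrbf2, a subunit of the Atg14 complex, had the largest rise with RANKL, by 0.72, and Tmem41b, a scramblase, the largest in RANKL + UD against control, at 0.33.

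Of 14 fusion genes, 8 (57.1%) were called higher and 4 (28.6%) lower with RANKL, where 27.3% and 30.2% of all tested genes were. With UD, 1 (7.14%) was called higher and 5 (35.7%) lower, where 18.6% and 20.2% were (median log2 fold change -0.07). Rab7, the GTPase of late endosomes, rose by 0.55 with RANKL. Tecpr1, which tethers autophagosomes to lysosomes, was at -0.70 with RANKL and at -0.59 with UD on the log2 scale, both called. Stx17, the SNARE of the autophagosome, rose by 0.27 with UD (edgeR adjusted p = 0.0144), a call lost without RANKL replicate 1 or RANKL + UD replicate 1 (adjusted p = 0.0565 and 0.0992). Vamp8, its partner on the lysosome, was at 0.51 in RANKL + UD against control.

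Of 19 genes of upstream kinases and nutrient sensing, 16 were tested, with 5 (31.2%) called higher and 5 (31.2%) lower with RANKL, near the 27.3% and 30.2% of all tested genes, and 1 (6.25%) higher and 6 (37.5%) lower with UD, where 18.6% and 20.2% were (median log2 fold change -0.10). Ddit4, a stress-induced inhibitor of mTORC1, had 4.09, 2.57 and 2.36 FPKM in control, 4.31, 4.57 and 4.31 in RANKL, and 2.38, 1.68 and 1.58 in RANKL + UD. It rose by 0.64 with RANKL (edgeR adjusted p = 0.0109, and 0.0619 without control replicate 2) and fell by 1.3 with UD (adjusted p = 5.69e-05). Sesn2 and Sesn1, sestrins that restrain mTORC1 when amino acids are scarce, went in opposite directions in both comparisons. Sesn2 rose by 1.17 with RANKL and fell by 0.86 with UD, and Sesn1 fell by 0.27 and rose by 0.39. Deptor, a subunit of mTORC1 that restrains it, had the largest fall of the list with RANKL, at -0.37.

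The broader autophagy pathway of the same annotation, ko04140, holds 290 genes that are not among the 47. Many of these, such as Sqstm1, Ddit4, Atg14 and Bcl2, were also counted in the lists above, so this is not a separate set. Of the 290, 98 were tested, with 34 (34.7%) called higher and 31 (31.6%) lower with RANKL, near the 27.3% and 30.2% of all tested genes. With UD, 14 (14.3%) were called higher and 32 (32.7%) lower, where 18.6% and 20.2% of all tested genes were, and the median log2 fold change was -0.07. The largest rise with RANKL was that of Mras, a small GTPase, from 0.04 to 0.12 FPKM in control to 2.26 to 2.68 in RANKL. Mras passed the filter only through the libraries given RANKL, with or without UD, where it was high. The largest fall with RANKL was that of Pik3cg, a lipid kinase of leukocytes, at -1.59 on the log2 scale. With UD, Pik3r3, a regulatory subunit of such kinases, had the largest rise, by 0.71 (edgeR adjusted p = 0.00484). In RANKL + UD against control, Rras, another small GTPase, had the largest fall, at -1.84.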

How the data were processed

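RNA-seq was made from 9 libraries of RAW264.7 cells, 3 per group, which the labels call replicate biosamples, so p-values measure the spread between these samples. The authors deposited 1 table with whole-number read counts and FPKM values per gene, and the FPKM follow from the counts, exonic lengths and library totals. Its columns call the RANKL group Model, as the paper does. Per the labels, poly(A) RNA was made into strand-specific libraries, and the build named is mm10. The deposited gene coordinates matched those of GRCm38 for 0 of the 47 genes and are not printed. Aligner and counting tool are not given in the sources used here.

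Counts were fitted with edgeR 4.0.16 (quasi-likelihood test, TMM, all 9 libraries) in R 4.3.3. The filter, 1 FPKM or more in 3 or more libraries, kept 11995 genes. Alternatives were DESeq2 1.42.0, limma 3.58.1 on log2(FPKM + 1) and log2(FPKM + 0.1), other scalings, no filter, the 6 libraries of a contrast, a replicate block, each library left out, and a fold change over 1.5. Family shares were compared by exact permutation over libraries. On simulated counts for RANKL + UD against RANKL (11995 genes, 200 changed), edgeR recovered 90.3% of changes of 1 on the log2 scale and 78.5% of 1.5-fold changes, with 4 false calls. The simulated spread between replicates was set above the common value fitted to these data. With so few genes changed, in both directions, the simulation did not test the scaling between groups. The genes, lists and tests were chosen with earlier results of these data known. Values in every library are given for the 12 called genes with the largest change in each of RANKL against control and RANKL + UD against RANKL. From each other list, the called genes with the largest rise and fall per comparison are named, plus Sqstm1, Map1lc3a, Map1lc3b, Atg14 and Uvrag. Promoters were searched on both strands.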

Additional observations from a re-analysis of the deposited data

How the results depend on the processing

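No value of the 34 genes or of the named list genes changed its direction while called in any alternative. With a fold change over 1.5 required, the calls were 3 higher and 1 lower in RANKL against control, 0 higher and 5 lower in RANKL + UD against RANKL, and 1 higher and 7 lower in RANKL + UD against control. With limma on log2(FPKM + 1) or on log2(FPKM + 0.1), 5 of the 34 genes were called higher and 12 or 13 lower in RANKL + UD against RANKL, while of the calls over all genes 65.7% and 66% were higher, against 48.0% with edgeR and TMM. Under the other alternatives that left out no single library, the counts in each direction stayed within 1.5 times those reported. With 1 library left out, the genes called higher and lower numbered 11 to 13 and 8 to 12 in RANKL against control, 1 to 2 and 15 to 18 in RANKL + UD against RANKL, and 6 to 7 and 14 to 17 in RANKL + UD against control. The count of 1 was that without RANKL replicate 2 or 3, or RANKL + UD replicate 2 or 3. In RANKL + UD against RANKL, Atg101, Atg9b and Gabarap lost their calls under library totals alone and limma, Atg101 also with no filter, Pik3c3 under library totals alone, Igbp1 with limma, and Wipi1 with limma on log2(FPKM + 1) (adjusted p = 0.06). Called higher there but not with edgeR and TMM were Atg2b under library totals alone and limma, and Atg4c and Ppp2cb with limma.

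The replicate numbers paired the libraries at most weakly. The 2 highest correlations were those of control replicate 1 with replicate 1 of RANKL + UD (0.0984) and of RANKL (0.0855). Deviations of libraries with the same number correlated at -0.0194 to 0.0984 and those of other pairs at -0.102 to 0.0464, and not every library correlated best with its own number. With a replicate block, 12 genes were called higher and 12 lower in RANKL against control, 2 and 18 in RANKL + UD against RANKL, and 7 and 17 in RANKL + UD against control. Wipi1 rests on 50 to 150 counts per library. The 13 genes not tested lay below the filter, and the reason for their low counts was not tested.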
